A study of Homo sapiens with 4 samples.

Results

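Trimethylation of histone H3 at lysine 4 (H3K4me3) was examined at sites that were both strong and far from the limits of any gene. A site was taken when its H3K4me3 summit had a score of at least 10 and lay more than 2500 bp from the start and the end of every RefSeq gene of any type, on chromosomes 1 to 22 and X. The sites were thus chosen by their measured score and their position. The rule found 4985 sites among 46078 H3K4me3 summits, or 10.8% of all and 25.02% of the 19923 with a score of at least 10. A summit is the 1 bp position of highest enrichment in a peak, and its score is the authors' −log10 value for that peak, so score and distance describe the sites here and support nothing. The weakest site had a score of 10.0006, and the strongest left out by the score minimum alone had 9.9894. The nearest site lay 2501 bp from a gene limit, and the farthest strong summit left out by distance lay 2495 bp away.

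The cells were MHCC97L, an established human hepatocellular carcinoma line, labelled as wild-type and untreated and grown in serum-containing DMEM. ChIP-seq gave 1 library each for H3K4me3, for acetylation of H3 at lysine 27 (H3K27ac) and for monomethylation of H3 at lysine 4 (H3K4me1). A library of input chromatin made up the 4 samples and was not analysed here. With 1 library per mark no test of a difference was possible, the read depth is unknown, and intervals are 95% Wilson intervals that cover counting error only, since neighbouring summits are not replicates.

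H3K4me3 is laid down by SET1 and MLL family methyltransferases and is concentrated around active transcription start sites, most of all at CpG islands. H3K27ac marks active promoters and enhancers, and H3K4me1 is typical of enhancers and of the flanks of promoters, where it gives way to H3K4me3 at the start itself. Many human genes have alternative promoters far inside their outer limits, so strong H3K4me3 away from gene ends is one place where such promoters, or promoters of transcripts without an annotation, are looked for.

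A group of these sites sat on a start that the RefSeq promoter table gives inside a longer gene. This listed start can differ from the outer limit of the gene, which spans all its transcripts. The 250 bases upstream of 6 such starts are shown, on the transcribed strand from 5′ to 3′ and ending at the base before the start, with every CpG in capitals, because their CpG content spans the range described further on. The sequences are from RefSeq on GRCh38.p14. The first 4 belong to sites among the highest scores at a listed start. TPM3 (chr1:154183219-154183468, minus strand) encodes a tropomyosin that binds along actin filaments. NEMP1 (chr12:57078792-57079041, minus strand) encodes a membrane protein of the nuclear envelope. AEBP2 (chr12:19440349-19440598, plus strand) encodes an accessory subunit of Polycomb repressive complex PRC2. AEN (chr15:88621090-88621339, plus strand) encodes an apoptosis-enhancing nuclease. The last pair, FRK (chr6:116060892-116061141, minus strand), a kinase of the Src type, and NEU3 (chr11:74988394-74988643, plus strand), a plasma membrane sialidase, had the fewest CpG among starts with a score of at least 50.
TPM3: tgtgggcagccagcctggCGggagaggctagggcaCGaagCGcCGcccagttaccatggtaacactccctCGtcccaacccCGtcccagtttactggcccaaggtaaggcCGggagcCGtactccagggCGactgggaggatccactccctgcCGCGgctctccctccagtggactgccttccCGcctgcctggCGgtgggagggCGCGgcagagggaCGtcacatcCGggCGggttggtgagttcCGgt
NEMP1: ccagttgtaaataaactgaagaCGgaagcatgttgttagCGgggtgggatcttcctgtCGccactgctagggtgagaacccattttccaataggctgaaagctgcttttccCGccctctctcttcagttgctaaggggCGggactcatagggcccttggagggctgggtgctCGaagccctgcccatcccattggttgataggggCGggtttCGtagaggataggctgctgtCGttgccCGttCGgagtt
AEBP2: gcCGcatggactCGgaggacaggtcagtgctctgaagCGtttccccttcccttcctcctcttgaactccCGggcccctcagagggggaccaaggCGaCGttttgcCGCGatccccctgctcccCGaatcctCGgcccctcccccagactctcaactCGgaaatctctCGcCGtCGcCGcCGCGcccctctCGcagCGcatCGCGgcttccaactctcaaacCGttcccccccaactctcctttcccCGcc
AEN: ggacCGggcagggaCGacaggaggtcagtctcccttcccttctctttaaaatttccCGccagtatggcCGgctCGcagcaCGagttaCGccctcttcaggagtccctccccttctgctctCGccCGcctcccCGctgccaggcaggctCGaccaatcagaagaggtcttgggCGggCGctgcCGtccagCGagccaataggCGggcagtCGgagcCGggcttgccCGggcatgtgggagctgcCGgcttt
FRK: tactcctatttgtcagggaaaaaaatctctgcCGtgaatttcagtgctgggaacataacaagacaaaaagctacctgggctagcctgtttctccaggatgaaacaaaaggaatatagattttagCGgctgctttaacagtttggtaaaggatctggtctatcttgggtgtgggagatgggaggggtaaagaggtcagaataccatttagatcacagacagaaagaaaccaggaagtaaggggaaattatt
NEU3: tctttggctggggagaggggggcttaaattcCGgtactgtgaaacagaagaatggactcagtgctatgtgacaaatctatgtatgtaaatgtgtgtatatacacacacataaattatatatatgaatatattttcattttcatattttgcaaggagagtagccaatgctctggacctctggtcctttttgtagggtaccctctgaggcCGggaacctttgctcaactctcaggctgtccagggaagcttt

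The upstream windows of TPM3, NEMP1, AEBP2 and AEN held 19, 11, 23 and 20 CpG, with a GC content of 68.4%, 55.6%, 66% and 66%. Those of FRK and NEU3 held 2 CpG each at 41.6% and 42% GC. The TPM3 summit had an H3K4me3 score of 132.6, lay 156 bp downstream of the listed start, and had an H3K27ac summit of score 97.1 at 25 bp. The FRK summit had a score of 53.0 and lay 672 bp downstream of its start, with H3K27ac at 307 bp. The NEU3 summit scored 76.8, 445 bp downstream of its start, with H3K27ac at 16 bp. High H3K4me3 with H3K27ac close by was thus recorded beside a CpG-rich window at TPM3 and beside the CpG-poor windows of FRK and NEU3. The best H3K27ac scores within 1000 bp at TPM3, FRK and NEU3 were 97.1, 59 and 11.3. At AEBP2, with 23 CpG, the nearest H3K27ac summit lay 1068 bp away.

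The 4985 sites formed 4575 loci when sites closer than 2500 bp to the next were joined. Of these loci, 4203 held 1 site, 341 held 2, 25 held 3, 5 held 4 and 1 held 5. The median score of the sites was 18.4 (quartiles 12.8 and 31.6), against 47.2 for the 14938 H3K4me3 summits with a score of at least 10 nearer to a gene limit, and 4.81 for the 17184 far summits with a lower score. The median distance to the nearest gene limit was 11276 bp (quartiles 5609 and 25061). In 50.6% of sites there was no other H3K4me3 summit within 2500 bp, and 275 sites (5.52%) were linked to a gene limit by a chain of H3K4me3 summits with gaps of at most 2500 bp.

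Protein-coding genes held 3001 of the sites, or 60.2% (58.8 to 61.6), against 65.4% of all H3K4me3 summits. Outside every gene lay 1523 sites, or 30.6% (29.3 to 31.8), against 23.3% of all H3K4me3 summits. The remaining 461 (9.25%) lay in noncoding genes alone. The shares over all H3K4me3 summits include those near a gene limit. Of weaker far summits 66.9% lay inside protein-coding genes and 24.1% outside every gene. The highest scores came from each of these locations, at 132.6 inside protein-coding genes, 117.95 outside genes and 111.7 in noncoding genes.

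After TPM3, the highest locus in a protein-coding gene lay in KRT8 (chr12:52904517, score 130.6), which encodes a keratin of simple epithelia such as liver. It had H3K27ac of score 108.8 at 923 bp and H3K4me1 at 2267 bp. H3K4me3 of score 107.3 lay near the limits of KRT8, the same score as the best H3K4me3 summit counted for KRT18. Both values may thus come from the same summit, which need not belong to KRT8. EIF3H, a subunit of translation initiation factor eIF3, held a locus of score 126.96 (chr8:116754694) with H3K27ac at 985 bp, beside a summit of score 117.4 near its limits. A locus of score 124.5 lay in TXNRD1 (chr12:104289516), the cytosolic thioredoxin reductase, 73737 bp from the 5′ limit of the gene. Its nearest H3K27ac summit, of score 153.5, was 2327 bp away, and TXNRD1 held 5 such loci in all. ZNG1F had a locus of score 126.0 (chr9:41188765), 552 bp from its listed start, but the gene has near-identical copies on chromosome 9, so its placement is uncertain.

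LMNA, which encodes lamins A and C, and VMP1, an endoplasmic reticulum protein of autophagy, differed in their H3K27ac. The VMP1 locus (chr17:59838418, score 124.2) had an H3K27ac summit of score 147.6 at 67 bp. The LMNA locus (chr1:156115193, score 115.4) lay 32620 bp from the 5′ limit, its nearest H3K27ac summit was 6760 bp away with a score of 4.94, and H3K4me1 of score 14.6 lay at 1571 bp. LMNA and VMP1 held 3 loci each and carried H3K4me3 near their limits, with scores of 62.5 and 108.2.

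CHD1L, a chromatin remodelling helicase, held a locus of score 116.7 (chr1:147243880), 1196 bp downstream of its listed start, with H3K27ac at 990 bp. ATAD2, a bromodomain ATPase, held a locus of score 116.5 (chr8:123395505) with H3K27ac at 1082 bp. The CYP4F11 locus (chr19:15932357, score 115.2) lay only 2510 bp from the start of this cytochrome P450 gene, just past the distance limit. Its gene limits carried a summit of score 177.5, the highest H3K4me3 score near any gene limit. NEMP1 held a locus of score 112.5 (chr12:57078465) with H3K27ac at 114 bp and H3K4me1 at 1095 bp. The CREBZF locus (chr11:85663129, score 108.2), in a gene for a basic leucine zipper factor, had H3K27ac of score 92.8 at 1831 bp.

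**Figure D1:**
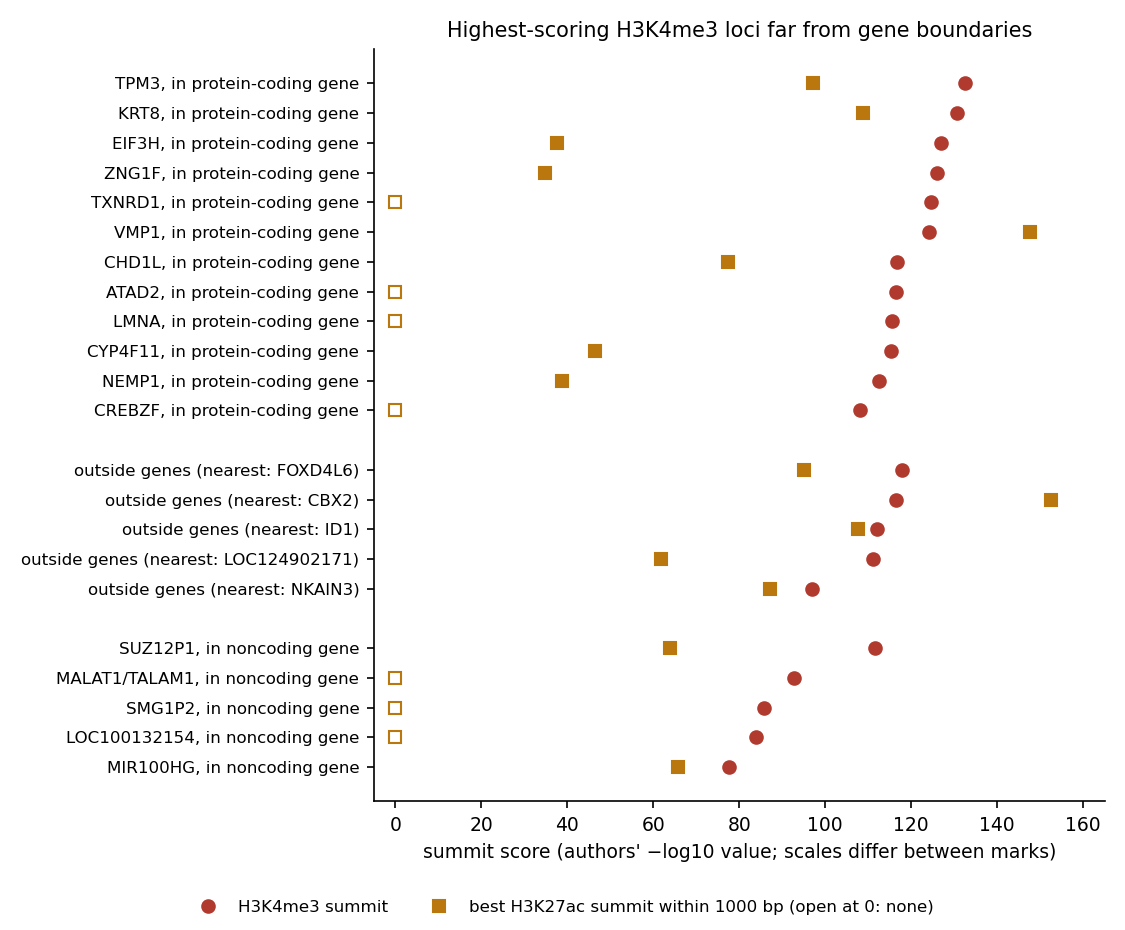
Score of the highest H3K4me3 summit (circles) and of the best H3K27ac summit within 1000 bp (squares, open at 0 where none was found) for the 12 highest loci in protein-coding genes, the 5 highest outside genes and the 5 highest in noncoding genes. Scores are the authors' −log10 values, whose scale differs between marks. Loci with H3K4me3 scores from 77.5 to 132.6 had H3K27ac scores from none to 152.6.

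Outside every gene, the 5 highest loci scored from 96.9 to 117.95, and 2 of them lay in copy-rich sequence. One locus lay 8080 bp from CBX2, a Polycomb subunit gene (chr17:79769231, score 116.3), with an H3K27ac summit of score 152.6 at 679 bp. Another lay 10763 bp from ID1, which encodes an inhibitor of basic helix-loop-helix factors (chr20:31594526, score 112.0), with H3K27ac of score 107.5 at 83 bp. A locus 84305 bp from NKAIN3, the nearest protein-coding gene (chr8:62164549, score 96.9), had H3K27ac of score 87.0 at 176 bp and was 19956 bp from the nearest gene limit of any type. The other two, chr9:40745840 (score 117.95) and chr9:66270171 (score 111.1), lie around the chromosome 9 centromere, a stretch rich in near-identical copies. From 38 to 70 Mb this chromosome held 43 of its 230 sites, whose placement is uncertain.

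In noncoding genes alone, SUZ12P1, a transcribed pseudogene of the PRC2 subunit SUZ12, held the highest locus (chr17:30732235, score 111.7), and SMG1P2 the third (chr16:29594146, score 85.8). Both are copies of protein-coding genes, and LOC100132154 with 83.997 lies in the copy-rich stretch of chromosome 9, so reads could have come from other copies. MALAT1, an abundant nuclear long noncoding RNA that overlaps its antisense partner TALAM1, held a locus of score 92.7 (chr11:65502079) 4341 bp into the gene. Its nearest H3K27ac summit was 3201 bp away with a score of 3.21, and H3K4me3 near the gene limits reached only 7.92. MIR100HG, a host transcript of microRNAs, held a locus of score 77.5 (chr11:122179685) with H3K27ac of score 65.8 at 557 bp and none of H3K4me3 within 2500 bp of its own limits.

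H3K27ac accompanied 67.7% (66.4 to 68.9) of the sites within 1000 bp, against 61.5% of all H3K4me3 summits. The share was 82.4% (81.7 to 83.0) for equally filtered summits near a gene limit and 52.9% for weaker far summits. H3K4me1 lay within 1000 bp of 31.3% (30.02 to 32.6) of the sites, against 33.9% of all H3K4me3 summits, 7.62% (7.21 to 8.06) near a gene limit and 58.2% for weaker far summits. The share of the sites with H3K4me1 was 18.7% when only H3K4me1 summits with a score of at least 5 counted, 5.78% with at least 10, and 17.95% within 500 bp. The median distance to the nearest H3K27ac summit was 365 bp (quartiles 53 and 2662), and to the nearest H3K4me1 summit 3705 bp (quartiles 741 and 35535). Near gene limits these medians were 309 bp and 11841.5 bp, and at weaker far summits 848 bp and 685 bp. Just outside the score minimum, the 688 far summits of score 9 to 10 had H3K27ac in 61.0% and H3K4me1 in 53.3%, and the 577 sites of score 10 to 11 had them in 60.8% and 47.3%. Inside protein-coding genes H3K27ac accompanied 71.1% (69.5 to 72.7) of the sites. Over all scores, sites far from gene limits thus had more H3K4me1 nearby and less H3K27ac than strong summits near a limit, by more than counting error. These groups were not matched on score, with medians of 18.4 and 47.2. At scores of 10 to 20 their H3K27ac shares were 61.2% and 60.9%.

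The H3K4me1 share fell with the H3K4me3 score. Among the 2717 sites with a score of 10 to 20, it was 43.7% (41.9 to 45.6), against 18.2% (16.7 to 19.7) near gene limits at the same score. Among the 463 sites of score 50 to 80 it was 6.05% (4.22 to 8.60), against 3.90% (3.41 to 4.45) near gene limits. In the 114 sites of score 80 or more it was 2.63% (0.899 to 7.45), against 4.16% (3.31 to 5.23). Within a score class the difference between far and near summits at 1000 bp was thus largest at low scores and within counting error at the highest. With a window of 2500 bp the far and near H3K4me1 shares were 32.8% (28.7 to 37.2) and 22.5% (21.4 to 23.7) at scores of 50 to 80. At 80 or more they were 42.1% (33.4 to 51.3) and 32.6% (30.4 to 34.9).

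H3K27ac was equally frequent far from and near to gene limits at scores of 10 to 20, with 61.2% (59.3 to 63.0) and 60.9% (58.99 to 62.7). At 30 to 50 the shares were 81.4% (78.4 to 84.0) and 87.1% (85.9 to 88.1). At 80 or more they were 73.7% (64.9 to 80.9) and 88.6% (87.0 to 90.1). With a window of 2500 bp the last pair rose to 90.4% (83.5 to 94.5) and 99.2% (98.7 to 99.5), so most of the highest sites without H3K27ac at 1000 bp had it somewhat farther away, as at TXNRD1 and CREBZF.

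**Figure D2:**
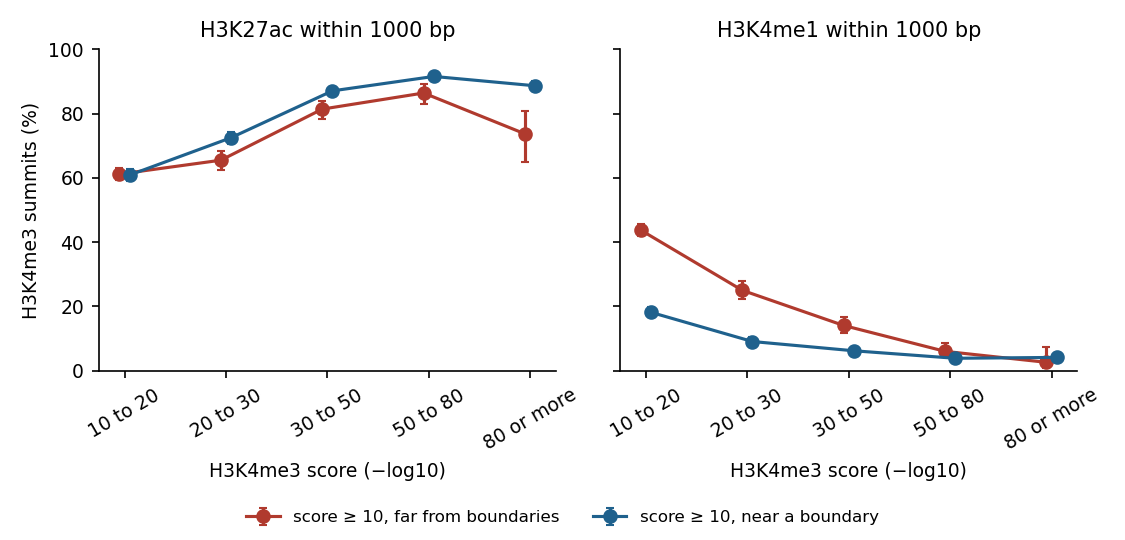
Share of H3K4me3 summits (%) with an H3K27ac summit (left) or H3K4me1 summit (right) within 1000 bp, by H3K4me3 score, for sites far from gene limits (red) and summits within 2500 bp of one (blue); bars are 95% Wilson intervals for counting error. The H3K4me1 share of the far sites falls from 43.7% to 2.63%, while the H3K27ac share rises from 61.2% to 86.4% and is 73.7% in the highest class.

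The placement of the other marks around a site changed with its score as well. Around the 577 sites with a score of at least 50, no H3K4me1 summit lay within 250 bp, and the density of H3K4me1 summits was 0.829 times the genome-wide density 250 to 500 bp away. It reached 6.16 times that density 1500 to 2000 bp away and 6.22 times 2500 to 3000 bp away. Around sites of score 10 to 20 the H3K4me1 density was already 10.3 times the genome-wide value within 250 bp and was highest, at 12.6 times, between 750 and 1000 bp. H3K27ac summits were densest within 250 bp in both classes, at 36.4 and 32.9 times their genome-wide density. These densities are averages over sites: within 2500 bp an H3K4me1 summit was found at 32.8% of the sites of score 50 to 80, 42.1% of those of 80 or more and 54.5% of those of 10 to 20.

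**Figure D3:**
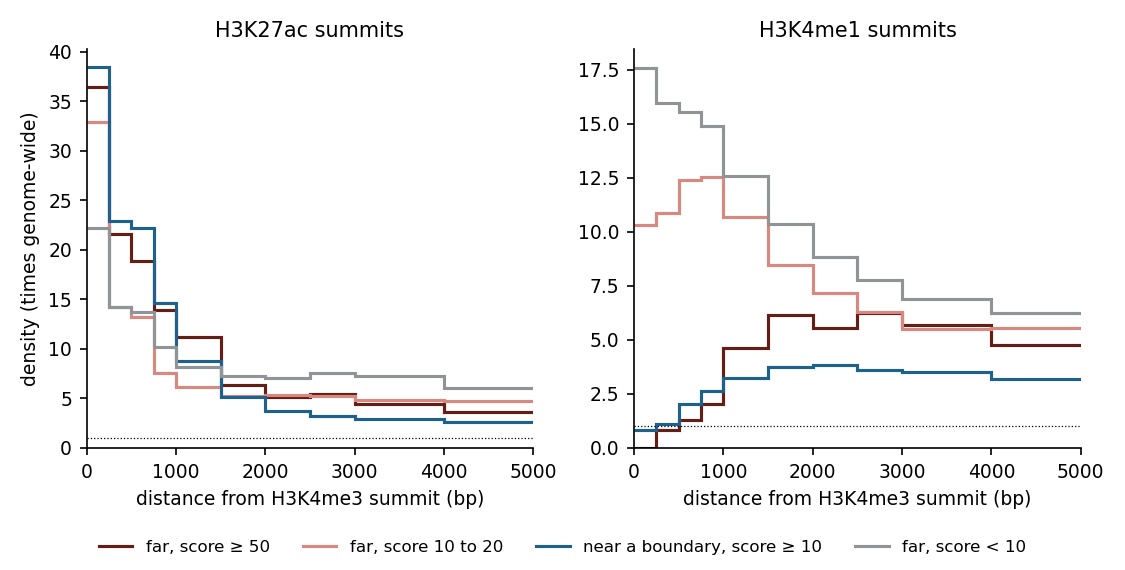
Density of H3K27ac summits (left) and H3K4me1 summits (right) against distance from the H3K4me3 summit (bp), as multiples of the genome-wide density (dotted line at 1), for far sites with a score of at least 50, far sites of score 10 to 20, strong summits near a gene limit, and weaker far summits. Within 250 bp H3K4me1 is at 0 around the highest far sites, 10.3 around those of score 10 to 20 and 17.6 around the weaker far summits.

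By their company of marks the sites fell into 4 classes. H3K27ac without H3K4me1 was found at 2150 sites (43.1%), whose median score was 26.9. Both marks were found at 1223 sites (24.5%) with a median score of 14.03, and H3K4me1 alone at 337 (6.76%) with a median of 13.99. Neither was found at 1275 sites (25.6%), whose median score was 16.4. Near gene limits the same 4 shares were 76.1%, 6.26%, 1.37% and 16.3%.

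Besides LMNA and MALAT1, the highest loci with no H3K27ac summit within 2500 bp were in HDGF, a heparin-binding growth factor (chr1:156751142, score 104.4), in SEPTIN9, a filament-forming GTPase (chr17:77320668, score 100.02), and in SETD1B, an H3K4 methyltransferase (chr12:121805519, score 91.2). At HDGF and SEPTIN9 an H3K27ac summit of score 108.9 and 118.1 lay 4203 and 2862 bp away. At SETD1B the nearest one, at 3130 bp, had a score of only 3.54, and neither limit of the gene had H3K4me3 within 2500 bp. The SETD1B locus lay 2573 bp from the start of LINC01089, a long noncoding RNA gene, just past the distance limit.

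At 799 sites (16.03%, 15.04 to 17.1) neither other mark lay within 10000 bp. The share was 7.13% (6.73 to 7.55) for strong summits near gene limits and 10.9% (10.4 to 11.4) for weaker far summits. Among the sites it was 10.5% inside protein-coding genes, 22.6% in noncoding genes and 24.9% outside genes. The highest of the 799 sites was in ASNS (chr7:97872303, score 55.4), the asparagine synthetase gene, 105 bp downstream of its listed start. SOCS2, a suppressor of cytokine signalling, held one of score 54.7 (chr12:93591438), and HTR2C, a serotonin receptor gene, one of score 53.4 (chrX:114836548) with H3K27ac no nearer than 181487 bp. Outside genes, the highest such sites were chr18:1509425 (score 50.9) and chr5:4615551 (score 47.2). This class of sites was set up after the values were seen.

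The sites farthest from any gene limit had scores from 11.6 to 25.5. A site in AUTS2 (chr7:70197659, score 11.6) lay 349870 bp from the nearest limit. One outside genes (chr1:104664719, score 25.5) lay 336307 bp away, and one in CNTNAP5, a neuronal cell adhesion gene (chr2:124361957, score 11.6), 318756 bp away. None of these 3 had H3K27ac or H3K4me1 within 10000 bp.

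Sites held by protein-coding genes were spread over 2176 host genes, which is 12.9% of the 16813 protein-coding genes longer than 5000 bp, the length a gene must exceed to hold one. Longer genes were hosts more often: 3.30% (2.87 to 3.79) of genes of 5000 to 20000 bp, 16.8% (15.5 to 18.2) of those of 50000 to 100000 bp and 37.0% (34.5 to 39.5) of those over 200000 bp. The median length of the hosts was 95374 bp, against 32654 bp for all genes over 5000 bp. A single locus was held by 1759 hosts, 2 by 302, 3 by 78, and 4 to 8 by the remaining ones.

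The genes with the most loci had different makeups. EXT1, a polymerase of heparan sulfate chains, held 8 loci with scores from 10.6 to 27.9. All 8 had an H3K4me1 summit within 526 bp and an H3K27ac summit within 1014 bp. ZBTB20, a zinc finger repressor active in liver, held 7, from 10.5 to 35.3, of which the locus of score 22.8 (chr3:114900771) lay 146 bp upstream of the listed start of ZBTB20. The 6 loci of MET, the receptor of hepatocyte growth factor, scored from 14.96 to 79.5, and the highest (chr7:116724366) had H3K27ac of score 90.3 at 132 bp and H3K4me1 of score 19.02 at 621 bp. MET also carried H3K4me3 of score 163.6 near its limits. BCOR, a corepressor of BCL6, held 6 loci from 13.1 to 70.9, and the highest (chrX:40097793) had H3K27ac at 1 bp. PDE4DIP held 6 from 14.9 to 103.5, in a stretch of chromosome 1 with near-identical copies, so its values are uncertain.

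Most hosts also had H3K4me3 near their limits. A summit lay within 2500 bp of either limit in 73.2% (71.3 to 74.98) of the hosts, against 68.6% of all protein-coding genes over 5000 bp and 67.9% (67.2 to 68.7) of the genes that were no hosts. Either limit counts, so such a summit need not lie at the start of the host. Among 1514 hosts whose listed start had no site within 1000 bp, 62.1% (59.6 to 64.5) had an H3K4me3 summit that near to it. For genes that were no hosts the share was 61.2% (60.3 to 62.1). The 584 hosts with no H3K4me3 summit within 2500 bp of either outer limit included TPM3, ZNG1F, CREBZF and AEBP2 (chr12:19440862, score 107.9). VGLL4, a cofactor of TEAD factors that held 5 loci, was another (highest at chr3:11642706, score 104.8). At the AEBP2 locus, 263 bp downstream of the listed start, H3K27ac lay at 1068 bp. At VGLL4 it lay at 1065 bp with a score of 65.7, and the listed start was 38125 bp away.

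Within hosts whose strand is known, the sites lay toward the 5′ side. Of 2557 pairs of site and host, 64.5% (62.7 to 66.4) fell in the first 50% of the gene, with a median of 30636 bp from the 5′ limit. For sites with a score of at least 50 the share was 68.2% (63.6 to 72.5), and for weaker far summits 71.4% (70.4 to 72.3). The 5′ side thus held a smaller share of all sites than of the weaker far summits, by more than counting error. For sites with a score of at least 50 the interval includes the share of the weaker summits. Each pair was counted separately, although 1 host can hold several sites and 1 site can lie in overlapping hosts.

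**Figure D4:**
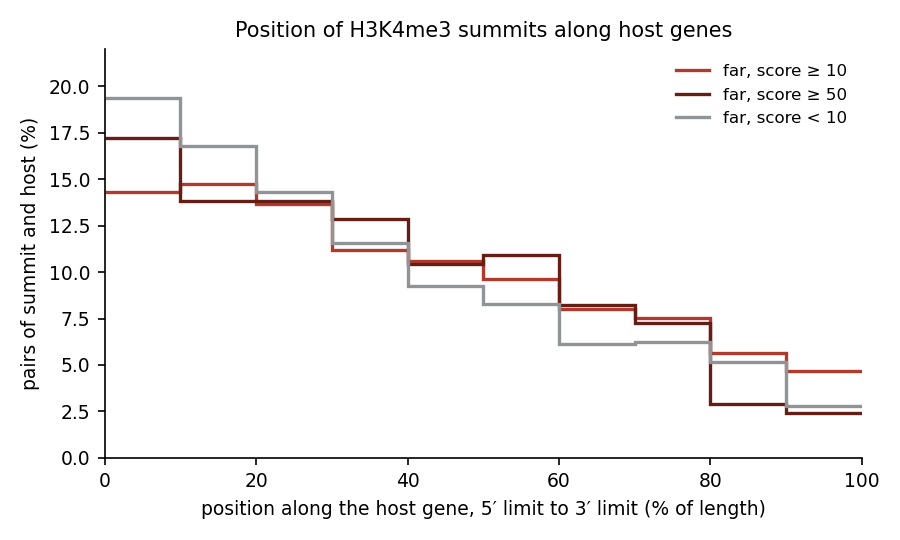
Position of H3K4me3 summits along host genes (% of the length from the 5′ to the 3′ limit, in steps of 10%) as a share of all pairs of summit and host, for far sites with a score of at least 10, those of at least 50, and weaker far summits. All 3 lines decline from the 5′ to the 3′ side, and 64.5% of the pairs of the far sites lie in the first 50%.

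Listed starts accounted for a minority of the sites. Of 4696 sites, with chromosome 8 left out of this count, 351 (7.47%, 6.76 to 8.26) lay within 1000 bp of a listed start, and 349 of the 2840 in protein-coding genes (12.3%, 11.1 to 13.5). The share was 2.67% at scores of 10 to 20, 5.21% at 20 to 30, 14.1% at 30 to 50, 25.2% (21.4 to 29.5) at 50 to 80 and 23.5% (16.4 to 32.6) at 80 or more. Even among the highest sites, then, most had no listed start within 1000 bp. The table lists 1 start per gene, so other annotated transcripts were not examined.

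Sites at a listed start had shares of the other marks close to those of strong summits near gene limits, which were 82.4% for H3K27ac and 7.62% for H3K4me1. Among the 349 in protein-coding genes, H3K27ac lay within 1000 bp of 82.2% (77.9 to 85.9) and H3K4me1 of 8.60% (6.09 to 12.01). For the 2491 without a listed start these shares were 69.8% (67.9 to 71.5) and 37.9% (36.0 to 39.8). The groups also differed in score, with medians of 42.7 over all 351 sites at a start and 17.8 over those without. At scores of 10 to 20 the H3K27ac shares at and away from a start were 67.2% (55.3 to 77.2) and 65.5% (62.99 to 68.0), and at 50 or more they were 90.4% (84.2 to 94.3) and 78.5% (73.6 to 82.7). At scores of 10 to 20 the H3K4me1 shares were 14.9% (8.31 to 25.3) and 53.8% (51.2 to 56.4), and at 50 or more they were 4.44% (2.05 to 9.36) and 5.06% (3.14 to 8.07). The summit lay downstream of the start in 76.1% of the sites at one, at a median of 188 bp, and in 76.3% of strong summits at starts near gene limits, at a median of 186 bp.

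Of 1090 listed starts more than 2500 bp from every gene limit, 286 (26.2%, 23.7 to 28.9) had one of these sites within 1000 bp. Among the 26105 other listed starts, 40.3% (39.8 to 40.9) had an H3K4me3 summit of at least 10 as near. Examples from the gene lists were PREX1, an exchange factor for Rac, with a site of score 70.6 (chr20:48827551) 448 bp downstream of its listed start, and NET1, another guanine nucleotide exchange factor, with one of score 66.1 (chr10:5447207) 656 bp downstream. In RB1, the retinoblastoma gene, a site of score 25.5 (chr13:48412281) lay 832 bp downstream of the start of LPAR6, a lysophosphatidic acid receptor gene nested inside it.

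The sequence at these starts was close to that of other starts with strong H3K4me3. In the 300 bp from 250 upstream to 50 downstream, the 304 starts with a site had a median GC content of 65.7% and a median of 26 CpG. The 10517 starts with another strong summit had 66.0% and 27, and the 15207 starts with no H3K4me3 summit within 1000 bp had 50% and 4. These groups were not matched on gene type: 302, 8328 and 6528 of their starts, in this order, belonged to protein-coding genes. The GC box letters GGGCGG, on either strand, were in 72.4% (67.1 to 77.1) of the windows with a site, 72.9% of those with another strong summit and 44.7% of all 27195. The TATA box letters TATAAA were in 2.30% (1.12 to 4.68), 4.93% and 11.97%. The letters CCGGAAG, bound by ETS factors, were in 12.5% (9.24 to 16.7), 21.5% and 10.7%, a lower share at these starts than at other starts with strong H3K4me3, by more than counting error. The other 4 motifs searched, of which none contains another, differed by less than counting error between the first 2 groups. They were CCAAT (36.5% with a site, 36.4% with another strong summit and 35.7% of all), the E-box CACGTG (9.54%, 10.1% and 7.45%), the AP-1 letters TGACTCA (1.97%, 2.72% and 4.89%) and the CRE TGACGTCA (2.30%, 3.42% and 1.98%). A match of letters is only a description. The TPM3, NEMP1 and AEN windows printed above hold the GC box letters, and those of AEBP2, FRK and NEU3 do not.

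A microRNA hairpin followed within 10000 bp downstream of 37 sites, or 0.788% (0.572 to 1.08), against 2.54% (2.30 to 2.81) of strong summits near gene limits and 1.12% (0.966 to 1.29) of weaker far summits. The rule bars sites within 2500 bp of a hairpin, since microRNA genes count as genes. MicroRNAs pair with target transcripts through the seed, bases 2 to 8, shown in capitals for 2 microRNAs, both much studied in cancer, that lie downstream of such sites. The sequences are from RefSeq on GRCh38.p14.
hsa-miR-21-5p: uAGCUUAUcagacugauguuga
hsa-miR-96-5p: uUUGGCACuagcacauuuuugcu

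The MIR21 hairpin begins 2848 bp downstream of the VMP1 locus of score 124.2 described above, and its mature 5p strand is at chr17:59841273-59841294. The VMP1 locus lay 130764 bp from the 5′ limit of VMP1. A site of score 58.1 outside every gene (chr7:129780093), with H3K27ac at 234 bp, lay 5324 bp upstream of the MIR96 hairpin, whose 5p strand is at chr7:129774739-129774761. The KRT8 locus was followed by the MIR9898 hairpin at 5533 bp. These microRNAs were singled out after their values were seen, and the counts of hairpins leave out chromosome 8.

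Hosts were counted in 6 gene lists. Of 36 cytoskeletal linker genes longer than 5000 bp, 21 were hosts (58.3%), of 47 transcription factor genes 28 (59.6%), of 37 receptor and kinase genes 21 (56.8%) and of 44 chromatin modifier genes 19 (43.2%). The median lengths of these lists ran from 128219 to 222834 bp, against 32654 bp for all genes, of which 12.9% were hosts. Among all genes of 100000 to 200000 bp 27.5% were hosts, and among those over 200000 bp 37.0%. Of 22 genes of imprinted regions 6 were hosts (27.3%), and of 37 hepatocyte function genes 3 (8.11%), with median lengths of 60641 and 27218 bp. The lists were chosen with earlier results of these data known, and no list was tested, so nothing is read from the shares beyond their counts.

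**Figure D5:**
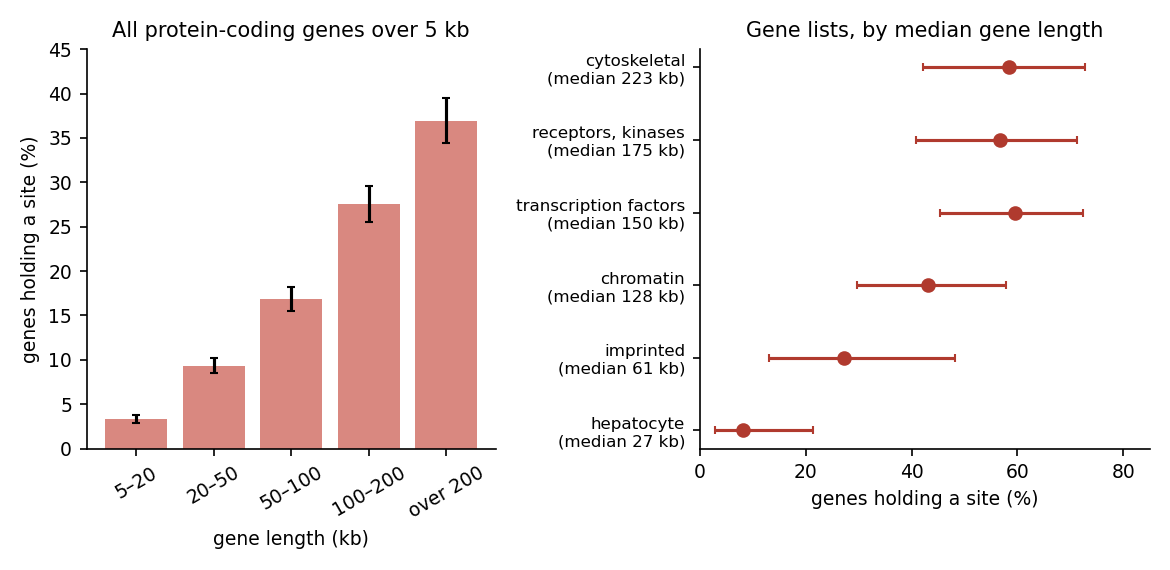
Share of protein-coding genes over 5000 bp that hold a far H3K4me3 site (%), by gene length (left, bars) and for 6 gene lists ordered by the median length of their genes (right, points); error bars are 95% Wilson intervals for counting error. On the left the share rises from 3.30% to 37.0% with length. On the right it is lowest for hepatocyte function genes (8.11%) and highest for transcription factor genes (59.6%). The list with the longest median, of cytoskeletal genes, has 58.3%.

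On the cytoskeletal list, PLEC, the plectin linker of intermediate filaments, followed TPM3 and SEPTIN9 with a locus of score 81.8 (chr8:143938378). The nearest H3K27ac summit of the PLEC locus was 10567 bp away. On the transcription factor list, which leaves out CREBZF, the highest hosts were nuclear receptors. They were RARG with 76.5 (chr12:53219717), RARB with 69.3 (chr3:25429798), 1535 bp downstream of its listed start, and the glucocorticoid receptor gene NR3C1 with 65.8 (chr5:143402108). The NR3C1 locus lay 2374 bp downstream of the listed start of NR3C1. It was 2558 bp from a limit of LOC128966704, just past the distance limit. RARB and NR3C1 had no H3K4me3 within 2500 bp of a limit of the gene, while RARG had a summit of score 40.5 there.

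On the receptor and kinase list MET was followed by PIK3R1, the regulatory subunit of PI3-kinase, with 51.8 (chr5:68291112), and SGK1, a serum-induced and glucocorticoid-induced kinase, with 45.7 (chr6:134174697). On the chromatin modifier list, which leaves out SETD1B, the highest hosts were MECOM with 66.3 (chr3:169146465) and the demethylase gene KDM2B with 64.3 (chr12:121467190). On the list of imprinted regions the highest were GNAS, the gene of the stimulatory G protein subunit, with 51.6 (chr20:58892768) and GET1 with 32.5 (chr21:39388092). The hepatocyte hosts were TF, the transferrin gene, with 19.3 (chr3:133746566), and UGT1A6 and UGT1A9, overlapping glucuronosyltransferase genes that share 1 site of score 10.5 (chr2:233697072).

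The labelled cell type was checked against 10 hepatocyte and liver cancer markers, counting any summit in the gene or within 1000 bp. ALB and TTR had none of the 3 marks, GPC3 had neither H3K4me3 nor H3K27ac, and AFP had H3K27ac of score 67.2 with H3K4me3 of 7.29. HNF4A, FOXA2, KRT8 and KRT18 had H3K4me3 scores from 71.9 to 130.6, and HNF4A held 2 of the loci. Of the 16 markers of other cell types, COL1A1, COL1A2, CDH5, CD3D, CD79A and EPCAM had no summit of any mark. H3K4me3 was found at SOX9 (score 72.6), ACTA2 (51.8), PECAM1 (25.4), KDR (22.8), KRT19 (17.2), CD68 (11.6) and PTPRC (7.29), and ACTA2 and PECAM1 held 1 of the loci each. KRT7, VWF and PDGFRB had H3K27ac, with scores of 57.1, 23.96 and 6.06, but no H3K4me3, and the part of other cell types in the results was not tested. By chromosome, sites made up from 14.1% (chromosome 22) to 37.1% (chromosome 8) of the strong H3K4me3 summits of a chromosome. The share of sites with H3K27ac within 1000 bp ran from 59.0% (chromosome 4) to 77.1% (chromosome 19). For H3K4me1 it was less even, from 11.1% (chromosome 6) to 46.6% (chromosome 17) with chromosome 13 left aside. The H3K4me1 shares of all sites average over this unevenness, whose cause was not tested. On chromosome 13 the H3K4me1 list had only 98 summits, and 0 of the 48 sites there had H3K4me1 within 1000 bp. Without that chromosome the shares of all sites were 67.7% for H3K27ac and 31.6% for H3K4me1.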

How the data were processed

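For each mark the authors deposited a summit list from 1 library, with a −log10 score of a p-value or q-value; which one is meant is not stated by the labels. Bowtie, Picard, deepTools and MACS2 on hg38 are named per the submitters' processing notes, with versions, settings and control not given in the sources used here. Because depth and background move a score, scores were used only within a list.

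Gene limits and types came from RefSeq genes on GRCh38.p14, which shares its chromosome coordinates with hg38, and strands and listed starts from its promoter table. Distances were computed with Python 3.11.15, numpy 2.4.6 and pandas 2.3.3, and the scripts were tested on simulated data. Chromosome Y and unplaced sequences were left out. The sites and gene lists were chosen with earlier results of these data known.

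Genes were named by rank of the best H3K4me3 score per locus: 12 in protein-coding genes, 5 each outside genes, in noncoding genes, without H3K27ac, in hosts without H3K4me3 near a limit and with most loci, the 3 farthest from a limit and 3 per gene list. Sequences, microRNAs and the class without marks within 10000 bp were chosen after the values were seen. No hg38 genome was used here, so sequence at sites without a listed start was not analysed here. Some genes and 1 gene list are not reported here. Alternatives changed the score minimum, distance, gene types and windows.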

Additional observations from a re-analysis of the deposited data

Results flagged for a closer look

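On unplaced or unlocalised sequences, which the comparisons leave out, 42 H3K4me3 summits had a score of at least 10, out of 97 summits there. They lay on 19 such sequences, and the highest score was 80.6. They stand out as a signal outside the analysed chromosomes. Without placed genes around them, their distance from a gene limit was not analysed here.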

How the results depend on the processing

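No paired analysis was possible because each mark had 1 library. With 1 library per mark nothing shows how far the values would vary between cultures, and depth is unknown. Of 52 alternatives, 23 kept a share within its interval or a count within 1.5 times its value and 29 moved it, and 6 were added after seeing the data (leaving out chromosome 13, the copy-rich stretch of chromosome 9, or sites linked to a gene limit). A score minimum of 5 gave 13374 sites and one of 20 gave 2268. There were 3939 sites at over 5000 bp, 7216 at over 1000 bp, and 7129 with limits of protein-coding genes alone. With score minimums of 5 and 20, H3K27ac accompanied 60.1% and 75.4%, H3K4me1 47.3% and 16.4%, and protein-coding genes held 63.1% and 64.5%. At the same score minimums, 27.4% and 26.9% lay outside genes, and 78.9% and 69.1% of hosts had H3K4me3 at a limit. At over 1000 bp from every gene limit, H3K4me1 accompanied 25.5%, protein-coding genes held 65.7%, 25.1% lay outside genes and 82.0% of hosts had H3K4me3 at a limit. With limits of protein-coding genes alone the shares were 69.2% for H3K27ac, 26.97% for H3K4me1, 51.1% inside protein-coding genes and 29.0% outside. Windows of 500 and 2500 bp gave 56.9% and 74.6% for H3K27ac and 18.0% and 45.7% for H3K4me1. A score of at least 10 or 5 in the other list gave 52.0% and 62.3% for H3K27ac, and 5.78% and 18.7% for H3K4me1. With 1000 bp around the limits, 60.4% of hosts had H3K4me3 there. The cause of these moves was not tested.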
